A study of Homo sapiens with 18 samples.

Results

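Heme breakdown and iron handling were followed through 10 genes, of which FECH makes heme rather than breaking it down, chosen by their symbols: HMOX1, FTL, FTH1, BLVRA, BLVRB, FECH, SLC48A1, TFRC, SLC40A1 and NCOA4. All 10 were found among the 23411 gene symbols of the deposited counts. Messenger RNA had been sequenced from 18 samples of ARPE-19 cells, an immortalized human cell line derived from the retinal pigment epithelium (RPE), with 3 replicates in each of 6 groups. Control cells had been transduced with a lentivirus that carried Cas9 without a gRNA. NRF2 ΔC cells, labelled NRF2-edited, had received Cas9 with a gRNA against exon 5 of NFE2L2, the gene for the transcription factor NRF2, and their edited alleles have stop codons at positions 503 and 505. Both lines therefore carry Cas9, and the NRF2 ΔC cells are a single clone. Each line was left untreated (Milli-Q water), treated with 1 mM NACET (the ethyl ester of N-acetylcysteine), or treated with 0.2 mM H2O2. The text of the series and the study's methods give 8 h of treatment after 40 h of culture in medium with 10% serum, whereas the labels of the samples give 2 h after 22 h in 1% serum. The question was which of these genes answer to each treatment, and whether they do so in cells with the edited NRF2.

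Heme, an iron-containing ring, is taken apart by heme oxygenase-1 (HMOX1) into biliverdin, carbon monoxide and free iron, and biliverdin is then reduced by biliverdin reductases (BLVRA and BLVRB). The iron set free is stored in ferritin, a shell built of light (FTL) and heavy (FTH1) chains, from which NCOA4 returns it through autophagy. Cells take iron up through the transferrin receptor (TFRC), release it through ferroportin (SLC40A1), and move heme out of endosomes and lysosomes through HRG1 (SLC48A1), while ferrochelatase (FECH) works in the opposite direction and inserts iron to make heme. Several of these genes are known targets of NRF2, which binds antioxidant response elements, and ferritin and TFRC mRNAs also carry iron-responsive elements, through which iron-regulatory proteins act on translation or on RNA stability. In the RPE, which is loaded with light, oxygen and iron, this system is known as part of the defence against oxidative damage.

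The genes lie at separate loci (hg19, positions from the GENCODE annotation lifted to that build): HMOX1 on chr22:35776354-35790207, FTL on chr19:49468566-49470136, FTH1 on chr11:61727190-61735106, SLC48A1 on chr12:48147699-48176534, FECH on chr18:55211609-55253964 and TFRC on chr3:195739382-195809024. The other 4 are BLVRA on chr7:43798279-43846941, BLVRB on chr19:40953672-40971671, NCOA4 on chr10:51565199-51590734 and SLC40A1 on chr2:190425316-190448484. FTH1 overlaps BEST1, and SLC48A1 overlaps HDAC7 and RAPGEF3. Strand was not used in counting, so reads from stretches that such genes share cannot be told apart.

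Promoter windows from RefSeq (GRCh38.p14) matched 8 of the 10 genes; HMOX1 and FTH1 had no entry. The 250 bases upstream of the start are shown for the 3 genes with a window that rose with NACET in control cells, FTL (chr19:48965059-48965308, plus strand), SLC48A1 (chr12:47772988-47773237, plus strand) and FECH (chr18:57586703-57586952, minus strand), each 5′ to 3′, with capitals for a match to TGACNNNGC, the core letters of an antioxidant response element, on either strand.
FTL: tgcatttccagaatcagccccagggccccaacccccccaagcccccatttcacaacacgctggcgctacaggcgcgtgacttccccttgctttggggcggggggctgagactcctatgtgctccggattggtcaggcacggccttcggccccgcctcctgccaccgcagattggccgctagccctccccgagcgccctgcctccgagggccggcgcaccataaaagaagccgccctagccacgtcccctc
SLC48A1: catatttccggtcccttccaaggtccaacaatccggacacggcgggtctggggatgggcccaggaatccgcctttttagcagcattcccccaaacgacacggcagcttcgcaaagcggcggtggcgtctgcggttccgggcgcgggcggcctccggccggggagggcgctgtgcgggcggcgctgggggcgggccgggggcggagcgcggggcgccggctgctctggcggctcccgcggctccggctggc
FECH: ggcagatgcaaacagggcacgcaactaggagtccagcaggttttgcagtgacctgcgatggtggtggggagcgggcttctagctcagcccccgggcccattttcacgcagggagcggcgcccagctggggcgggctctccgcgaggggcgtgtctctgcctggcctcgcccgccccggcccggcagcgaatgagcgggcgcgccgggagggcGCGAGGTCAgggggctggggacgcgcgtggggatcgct

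Among the 9 windows of these 8 genes, FECH alone held a match, on the strand opposite to the gene, whose letters read TGACCTCGC on that strand and whose outermost base lies 38 bases before the start. The same letters occur in 10.9% of all 35116 promoter windows of that length, so this is a description of the sequence and not a site. The next sequence shows the last 30 bases of the FTL window (chr19:48965329-48965358, GRCh38.p14, plus strand), bases 21 to 50 of its transcript, with capitals for CAGTGN, the loop letters of an iron-responsive element. Searched on the sense strand of the first 50 bases, these letters occur in the windows of FTL and NCOA4 and in 6.36% of all windows.
FTL: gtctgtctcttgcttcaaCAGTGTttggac

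The libraries held 16673306 to 25951154 reads counted on genes. Levels are given as CPM, read counts scaled to one common library size after TMM normalization over the 18 libraries. The sources used here do not say whether replicates were separate cultures, so p-values measure the spread between these samples, and in bulk RNA fewer cells of a kind and less RNA per cell cannot be told apart. NFE2L2, the edited gene, was at 120 to 127 CPM in untreated control cells and at 124 to 128 CPM in untreated NRF2 ΔC cells (log2 fold change 0.02), so its mRNA level does not tell the lines apart and the edit itself was not checked from these counts. Of 12 RPE markers 7 had a median of at least 1 CPM: KRT8, KRT18, OTX2 and MITF were between 64.8 and 684 CPM, whereas RPE65 and TTR had a median of 0. The summed level of these 12 was 1361 to 1381 CPM in untreated control cells, 1134 to 1289 with NACET and 956 to 1022 with H2O2, with 1309 to 1439, 1118 to 1324 and 945 to 1056 in NRF2 ΔC cells. Most of this sum came from KRT8 and KRT18 (medians over the 18 samples 554 and 409 CPM). TYR, RLBP1 and BEST1 had medians of 0.049, 0.21 and 0.49 CPM. The part of these markers in the results was not tested. Among markers of blood cells CD68 was present (77.5 to 147 CPM), PTPRC, CD14 and CD163 were at or near 0, the 6 erythroid markers summed to at most 0.147 CPM and the 3 endothelial markers to at most 1.66 CPM.

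In untreated control cells the ferritin chains were the most abundant of the 10 mRNAs. Per kilobase of the canonical transcript, FTL stood at 1584 ± 99.2 CPM (SD, n = 3) and FTH1 at 1110 ± 137. On the same scale BLVRB had 65.2 ± 6.61, TFRC 64.0 ± 17.5, NCOA4 47.4 ± 1.93, HMOX1 37.3 ± 7.02, BLVRA 27.7 ± 3.48, SLC48A1 10.2 ± 0.51 and FECH 5.58 ± 0.35. BLVRB and TFRC, TFRC and NCOA4, and HMOX1 and BLVRA, neighbours in this order, do not differ beyond their spread. SLC40A1, the exporter, had no count in 16 of the 18 libraries, 2 counts in untreated control replicate 1 and 3 counts in NACET-treated NRF2 ΔC replicate 3. A count of 0 allows up to 0.116 to 0.18 CPM at these depths, counting error only, so changes of the exporter under that level could not be seen. The exporter was not tested, and 9 of the 10 genes passed the filter on low counts and were tested.

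**Figure D1:**
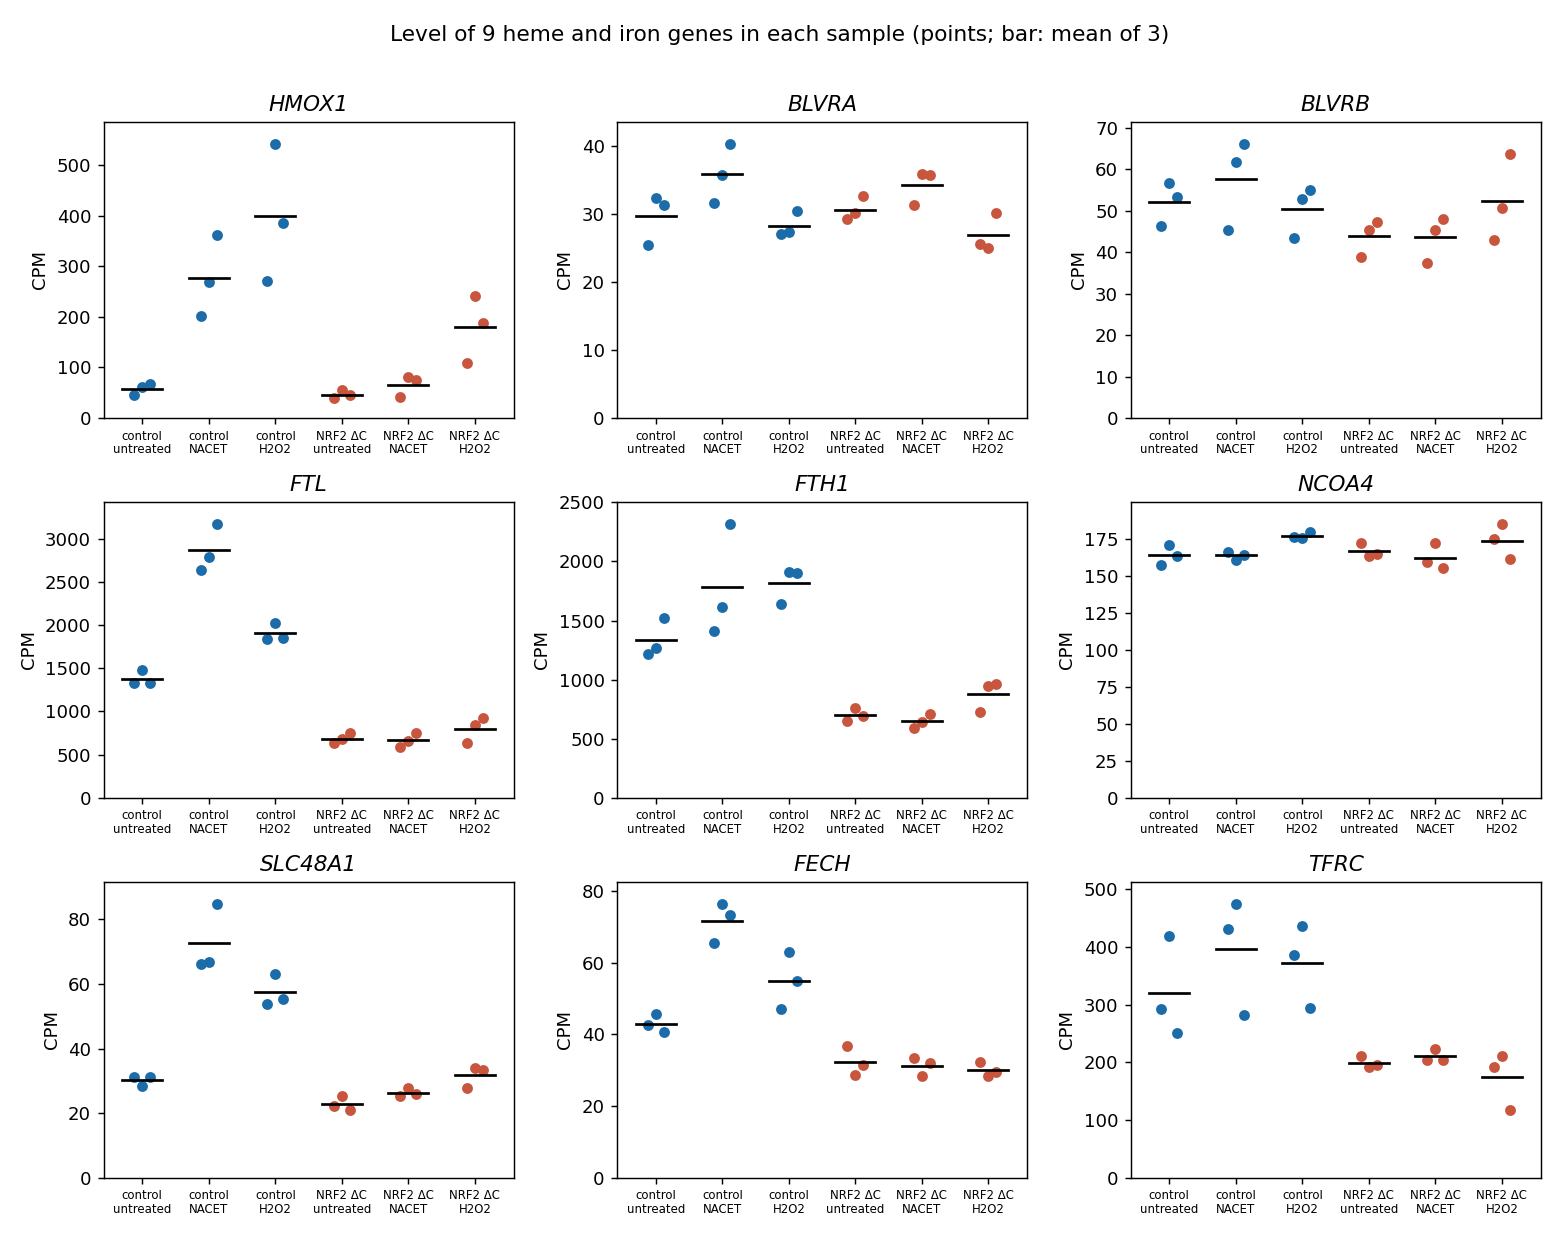
Level of 9 of the genes (vertical axis, CPM from 0) in each of the 18 samples, by group; points are samples in order of replicate number, bars are means of 3, blue marks control and red NRF2 ΔC cells. HMOX1, FTL, SLC48A1 and FECH are higher in every NACET-treated than in every untreated control sample, the ferritin chains are lower in every NRF2 ΔC sample than in every control sample, and NCOA4 stays between 155 and 185 CPM.

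NACET raised 4 of the 9 tested genes in control cells: heme oxygenase-1, the heme transporter, the ferritin light chain and ferrochelatase. HMOX1 was at 45.8, 61.3 and 66.9 CPM in the untreated samples and at 201, 269 and 362 CPM with NACET. The groups did not overlap, and the log2 fold change was 2.25 (standard error 0.23, 4.77-fold, adjusted p = 0.00555). SLC48A1 went from 31.0, 28.5 and 31.2 CPM to 66.1, 66.8 and 84.9 CPM (log2 fold change 1.26, standard error 0.12, adjusted p = 0.00555). FTL, already among the most abundant mRNAs, was at 1334, 1480 and 1327 CPM untreated and at 2642, 2783 and 3172 CPM with NACET. Its log2 fold change was 1.05 (standard error 0.12, adjusted p = 0.00924). FECH rose from 42.5, 45.8 and 40.5 CPM to 65.3, 76.5 and 73.3 CPM, a log2 difference of 0.73 (standard error 0.10, adjusted p = 0.0162). None of these 4 genes overlapped between the groups, beside 13.5% of all tested genes that lay higher with NACET without overlap. That share was taken for this comparison alone, so a lack of overlap in the others is only a description.

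Of all 13696 genes tested in this comparison 2.75% were differentially expressed genes (DEGs), 376 genes, which became 31 to 337 with 1 sample left out, fewest without NACET replicate 2. A DEG passed an adjusted p-value of 0.05 in the quasi-likelihood test of edgeR (Benjamini-Hochberg), and its log2 fold change was 0.6 or more in size. Blocking on the replicate number gave the same 4 DEGs, beside 7.49% of all genes. The median log2 fold change of the 9 genes was 0.41, beside -0.01 over all genes. HMOX1 and SLC48A1 were DEGs whichever of the 6 samples was omitted. FTL was not one without untreated replicate 2 (log2 fold change 1.10, adjusted p = 0.0511) or NACET replicate 2 (1.07, adjusted p = 0.0657), and FECH was not in 3 of the 6 fits, without untreated replicate 1 or 2 or NACET replicate 2 (adjusted p = 0.0564 to 0.111).

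The other 5 tested genes did not pass in control cells with NACET. The ferritin heavy chain, FTH1, was at 1213, 1268 and 1523 CPM untreated and at 1409, 1618 and 2319 CPM with NACET. NACET replicate 3 stood far above the other two, the groups overlapped, and the log2 fold change of 0.41 had an interval from -0.03 to 0.85 (adjusted p = 0.272). TFRC was at 293, 419 and 250 CPM and at 431, 475 and 282 CPM, so its samples overlapped too (log2 fold change 0.30, adjusted p = 0.534). The biliverdin reductases, which act directly after heme oxygenase, had log2 fold changes of 0.27 (BLVRA, 95% interval -0.03 to 0.57) and 0.14 (BLVRB, -0.20 to 0.49). NCOA4, the ferritin receptor of autophagy, had -0.01 (-0.20 to 0.18). With samples paired by the block and no fold limit, 7 of the 9 passed the adjusted p-value, beside 40.7% of all genes. FTH1 (0.39, adjusted p = 3.87e-07), TFRC (0.30, adjusted p = 9.64e-06) and BLVRA (0.27, adjusted p = 0.00136) were then among them, all under the fold limit. That fit took the spread of a gene largely from all genes, so these p-values say little of its own spread between the pairs.

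In control cells treated with H2O2, 2 of the 9 genes were DEGs, and HMOX1 again changed most. HMOX1 was at 270, 542 and 385 CPM, all above the untreated samples, which is 6.96-fold (log2 fold change 2.80, standard error 0.25, adjusted p = 0.00119). SLC48A1 was at 53.8, 63.2 and 55.3 CPM, likewise above every untreated sample (log2 fold change 0.94, standard error 0.10, adjusted p = 0.00202). Of all genes 6.33% were DEGs, and 10.2% under the block, where the same 2 genes passed. Both ferritin chains were higher in every treated sample but stayed under the fold limit: FTL was at 1836, 2025 and 1849 CPM (log2 fold change 0.48, adjusted p = 0.0232) and FTH1 at 1636, 1913 and 1900 CPM (0.46, adjusted p = 0.043). FECH was at 47.0, 62.9 and 54.9 CPM, with a log2 fold change of 0.37 (adjusted p = 0.0684). BLVRA, BLVRB, TFRC and NCOA4 had log2 fold changes between -0.05 and 0.23, with adjusted p from 0.302 to 0.893 without the block. With samples paired by the block and no fold limit, 7 of the 9 passed the adjusted p-value, beside 6670 of all 13691 genes. FECH was among these 7 (0.37, adjusted p = 0.000391). The median over the 9 was 0.37, beside -0.0038 over all genes.

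NACET and H2O2 were also set against each other in control cells, where none of the 9 genes was a DEG by edgeR or DESeq2, beside 3.67% of all genes and 7.5% with the block. FTL was higher with NACET in every sample (log2 fold change 0.58, 95% interval 0.32 to 0.84, adjusted p = 0.0289), just under the fold limit, and it passed without NACET replicate 1 (0.63, adjusted p = 0.0422). HMOX1 overlapped between the treatments (-0.53, interval -1.17 to 0.10, adjusted p = 0.289), as did FTH1 (-0.04). SLC48A1 (0.33) and FECH (0.37) were higher with NACET in every sample but did not pass (adjusted p = 0.149 and 0.112). At an unadjusted p under 0.05, 4 of the 9 genes passed, FTL, FECH, SLC48A1 and BLVRA, beside 23.4% of all genes. With samples paired by the block and no fold limit, 7 of the 9 passed the adjusted p-value, beside 5630 of all 13581 genes. HMOX1 was among these 7 (-0.52, adjusted p = 0.00305).

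**Figure D2:**
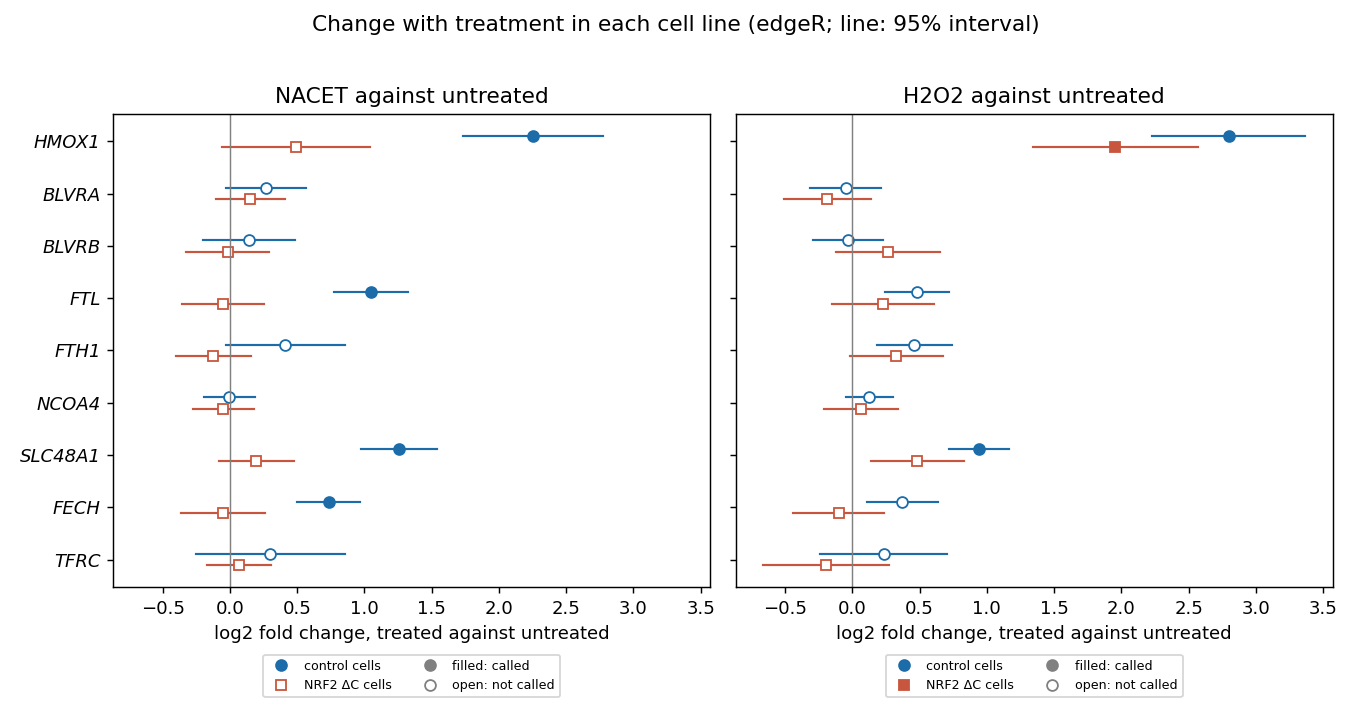
Log2 fold change of treated against untreated cells (horizontal axis) for 9 genes, left for NACET and right for H2O2; circles are control and squares NRF2 ΔC cells, lines are 95% intervals, and filled symbols mark DEGs. With NACET, HMOX1, FTL, SLC48A1 and FECH are filled for control cells and no gene is for NRF2 ΔC cells; with H2O2, HMOX1 is filled in both lines.

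In NRF2 ΔC cells none of the 9 genes was a DEG with NACET by edgeR or by DESeq2. Without a block none had an unadjusted p under 0.05, beside 18.6% of all genes. HMOX1 was at 39.1, 54.5 and 45.7 CPM untreated and at 42.1, 80.8 and 75.0 CPM with NACET, so the groups overlapped (log2 fold change 0.49, 95% interval -0.06 to 1.04, adjusted p = 0.32). The first NACET sample lay within the untreated range, and without it HMOX1 passed (0.74, adjusted p = 0.0433). Over all genes, NRF2 ΔC replicate 1 stood apart in all 3 groups, by chi-square per degree of freedom between the counts of paired libraries. With NACET this was 40.5 and 59.4 against replicates 2 and 3, and 11.7 between those. Untreated it was 50.6 and 56.9 beside 18.3, and with H2O2 56.7 and 66.8 beside 17.5. Pairs of control replicates had 9.98 to 54.0. HMOX1 was higher with NACET in all 3 pairs of the same replicate number, and under the block it passed the adjusted p-value but not the fold limit (0.46, 95% interval 0.26 to 0.66, adjusted p = 0.0013), alone of the 9 and beside 34% of all genes. FTL, at 630, 676 and 752 CPM untreated, was at 589, 659 and 754 CPM with NACET, which places its change between -0.35 and 0.26 on the log2 scale. SLC48A1 had a log2 fold change of 0.20 (interval -0.08 to 0.48), FECH of -0.05 (-0.37 to 0.26) and FTH1 of -0.12 (-0.40 to 0.16). Of all genes 1.39% were DEGs, and 8.82% under the block, where again none of the 9 was. The 188 DEGs behind the first share became 0 without untreated replicate 2 or NACET replicate 2, 1 without untreated replicate 3, 2 without NACET replicate 3, 139 without untreated replicate 1 and 462 without NACET replicate 1. The median log2 fold change of the 9 was -0.02, beside -0.0067 over all genes.

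H2O2 still raised HMOX1 in NRF2 ΔC cells, and it was the only DEG of the 9. It was at 109, 241 and 188 CPM, all above the untreated samples, which is 3.88-fold (log2 fold change 1.96, standard error 0.27, adjusted p = 0.00537). It was a DEG whichever of the 6 samples was omitted. Of all genes 9.81% were DEGs, and 18.7% with the block. The 9 genes had a median of 0.23, beside -0.0086 over all genes. SLC48A1 was at 27.8, 34.1 and 33.5 CPM, above the untreated 22.1, 25.4 and 21.0 CPM, with a log2 fold change of 0.48 (adjusted p = 0.0745). FTH1 (0.33, adjusted p = 0.184) and FTL (0.23, adjusted p = 0.387) overlapped between the groups. With the block and no fold limit, 3 of the 9 passed the adjusted p-value, beside 6304 of all 13543 genes. They were HMOX1, SLC48A1 (0.48, adjusted p = 0.000476) and FTH1 (0.32, adjusted p = 0.00752). Against H2O2, NACET-treated NRF2 ΔC cells had less HMOX1 in every sample (log2 fold change -1.44, standard error 0.33, adjusted p = 0.0334), the only DEG of the 9, beside 8.31% of all genes and 15.5% with the block. That call was lost in 5 of the 6 fits with a sample left out (-1.63 to -1.18, adjusted p = 0.0574 to 0.126), that is, unless the sample was H2O2 replicate 1.

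Whether a treatment acted differently in the lines was tested by its interaction with the cell line, which used 12 samples and no fold limit. For NACET, the response of FTL was lower in NRF2 ΔC than in control cells by 1.10 on the log2 scale (difference -1.10, 95% interval -1.46 to -0.73, adjusted p = 0.0464), and that of SLC48A1 by a like amount (-1.06, -1.42 to -0.70; adjusted p = 0.0464). These 2 genes stand beside 0.0643% of the 14002 genes tested. HMOX1 had a difference of -1.76 with a wider interval (-2.54 to -0.97) and did not pass (adjusted p = 0.231), and FECH had -0.79 (adjusted p = 0.231). The calls of FTL and SLC48A1 were lost in all 12 fits with a sample left out (FTL -1.19 to -1.01, adjusted p = 0.0853 to 0.203; SLC48A1 -1.12 to -0.94, adjusted p = 0.0842 to 0.232). They were also lost with the size factors of DESeq2 in edgeR (adjusted p = 0.0541 and 0.0549) and without the filter on low counts (adjusted p = 0.0553 and 0.0812), whereas DESeq2 kept both and also called HMOX1 (adjusted p = 0.00216) and FECH (adjusted p = 0.00461).

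Replicate numbers paired the samples within each line, but between the lines replicate 2 did not pair. Under a block on the replicate number within each line, 5 of the 9 genes passed for NACET, beside 0.9% of all genes: HMOX1 (-1.77, adjusted p = 6.36e-07), FTL (-1.10, adjusted p = 4.13e-06), SLC48A1 (-1.05, adjusted p = 4.06e-05), FECH (-0.79, adjusted p = 0.000313) and FTH1 (-0.51, adjusted p = 0.0248). For H2O2 no gene of the 9 passed without a block by edgeR or DESeq2, beside 0.0214% of all genes, although 2 of them, SLC48A1 and FECH, had an unadjusted p under 0.05, beside 5.76% of all genes. With the block within each line 2 passed, beside 6.91% of all genes: HMOX1 (-0.84, adjusted p = 0.00545) and FECH (-0.45, adjusted p = 0.0359). BLVRA and NCOA4 had differences of -0.12 to -0.04 in both interactions with and without this block.

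**Figure D3:**
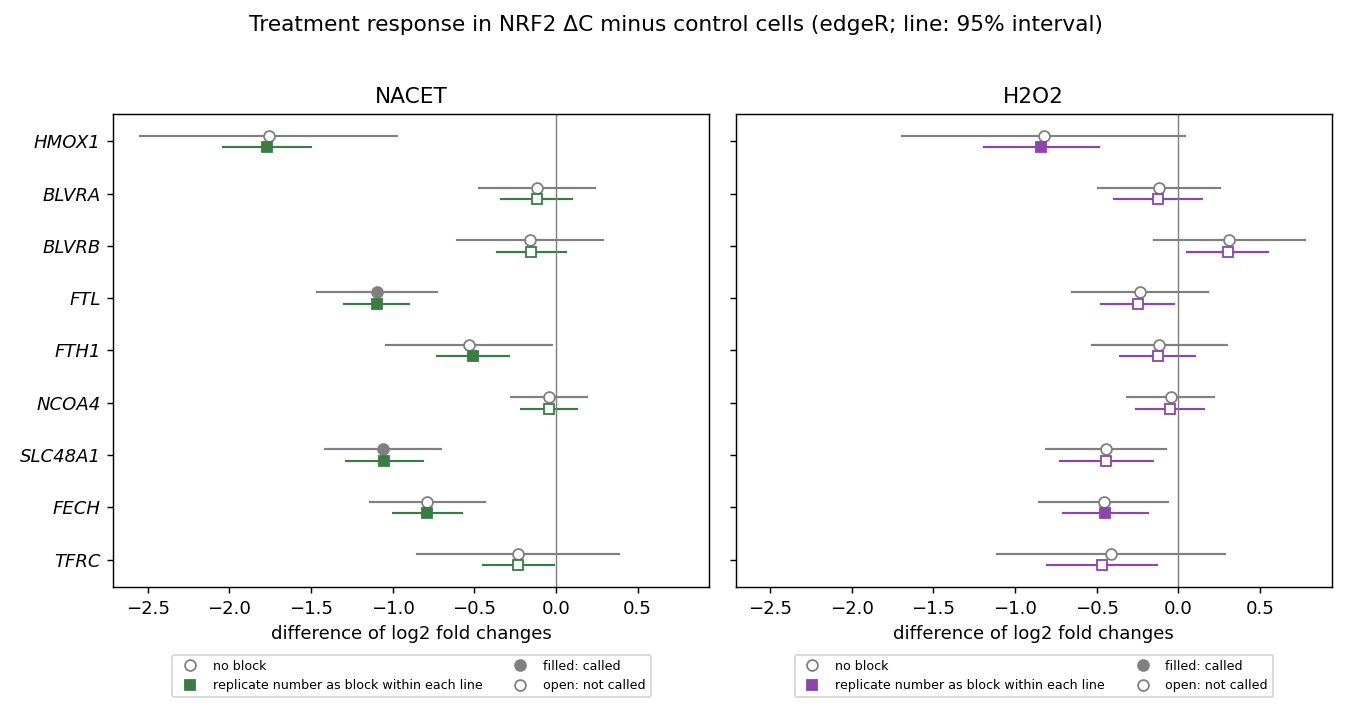
Response to NACET (left) and to H2O2 (right) in NRF2 ΔC minus control cells, as a difference of log2 fold changes (horizontal axis) with 95% intervals, for 9 genes; circles are the fit without a block, squares the fit with the replicate number as a block within each line, and filled symbols passed an adjusted p-value of 0.05. The values hardly move between the fits (FTL -1.10 in both for NACET) while the intervals narrow, so that 2 genes are filled without and 5 with the block for NACET.

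Without any treatment, NRF2 ΔC cells held less ferritin mRNA than control cells. FTL was at 630 to 752 CPM against 1327 to 1480 CPM (log2 fold change -1.01, standard error 0.12, adjusted p = 0.00215), and FTH1, at 648, 761 and 696 CPM, was below the control samples as well (-0.93, standard error 0.13, adjusted p = 0.00508). These were the 2 DEGs of the 9, beside 3.85% of all genes, and both were DEGs whichever of the 6 samples was omitted. SLC48A1 (-0.41, adjusted p = 0.141), FECH (-0.41, adjusted p = 0.175) and TFRC (-0.68, adjusted p = 0.0965) were lower in every NRF2 ΔC sample but did not pass. The median of the 9 was -0.41, beside 0.0125 over all genes. TFRC passed without untreated control replicate 3 (-0.83, adjusted p = 0.0319) and with DESeq2 (-0.67, adjusted p = 0.0158). HMOX1 overlapped between the untreated lines (-0.32, interval -0.70 to 0.06, adjusted p = 0.466), and NCOA4 (0.03, -0.19 to 0.25) and BLVRA (0.05, -0.24 to 0.33) lay close to 0.

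With NACET in both lines, 6 of the 9 genes were lower in NRF2 ΔC cells, beside 4.76% of all genes. The median log2 fold change over the 9 was -1.20, beside -0.0016 over all genes. FTL was at 589, 659 and 754 CPM against 2642, 2783 and 3172 CPM (-2.11, standard error 0.14, 4.31-fold lower, adjusted p = 0.000157). HMOX1 (-2.08, standard error 0.28, adjusted p = 0.00465), SLC48A1 (-1.47, adjusted p = 0.000594), FTH1 (-1.46, adjusted p = 0.00379) and FECH (-1.20, adjusted p = 0.000952) were also DEGs, and each remained one without any 1 sample. FECH was at 33.4, 28.3 and 32.1 CPM against 65.3 to 76.5 CPM. TFRC was at 204, 223 and 205 CPM in NRF2 ΔC cells, below the control samples (-0.92, adjusted p = 0.0302), but this call was lost in 5 of 6 fits (-0.95 to -0.77, adjusted p = 0.0509 to 0.133), all but the fit without NACET control replicate 3. BLVRB had -0.41 (adjusted p = 0.208), and BLVRA (-0.07) and NCOA4 (-0.02) lay close to 0.

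With H2O2 in both lines, 5 of the 9 genes were lower in NRF2 ΔC cells, beside 5.62% of all genes. They were FTL (-1.25, adjusted p = 0.00184), TFRC (-1.10, adjusted p = 0.0226), FTH1 (-1.05, adjusted p = 0.00315), FECH (-0.87, adjusted p = 0.00612) and SLC48A1 (-0.86, adjusted p = 0.00508). The median of the 9 was -0.875, beside 0.0056 over all genes. TFRC, at 193, 212 and 117 CPM against 387, 436 and 295 CPM, was no DEG without control replicate 1 (-1.08, adjusted p = 0.0791) or 2 (-0.996, adjusted p = 0.104). HMOX1 was lower in every NRF2 ΔC sample (109 to 241 against 270 to 542 CPM) but missed the threshold (-1.16, standard error 0.31, adjusted p = 0.0596). It passed in DESeq2 (adjusted p = 0.00199), without the filter on low counts (adjusted p = 0.0212) and in 1 fit of all 18 samples (adjusted p = 0.0243). HMOX1 also passed without control replicate 1 (-1.39, adjusted p = 0.0437) or NRF2 ΔC replicate 1 (-0.90, adjusted p = 0.017). It passed with the replicate block too (adjusted p = 9.86e-06), although replicate 2 did not pair between the lines. The 3 comparisons between the lines use different samples, but all of these samples also enter the treatment comparisons and the interactions above.

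**Figure D4:**
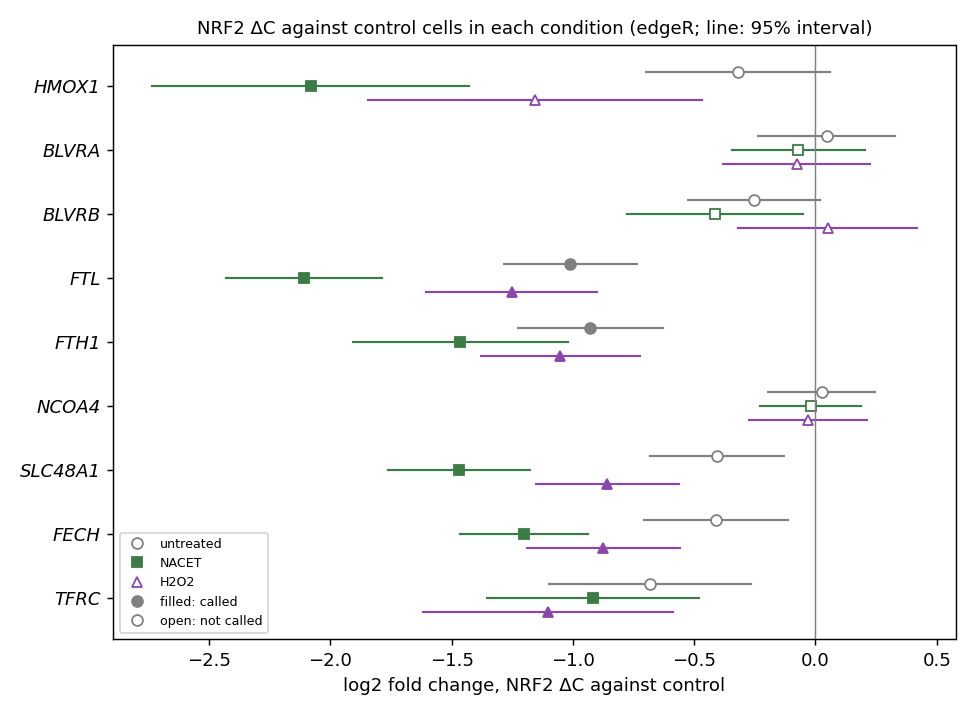
Difference between NRF2 ΔC and control cells as log2 fold change (horizontal axis) for 9 genes when untreated (grey circles), with NACET (green squares) and with H2O2 (purple triangles); lines are 95% intervals and filled symbols mark DEGs. FTL and FTH1 are filled in all 3 conditions, TFRC, FECH and SLC48A1 with either treatment, HMOX1 with NACET, and BLVRA, BLVRB and NCOA4 in none.

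Ferritin shells mix both chains, and the ratio of FTL to FTH1 counts within a library needs no scaling between libraries. The ratio was 1.10, 1.17 and 0.87 in untreated control cells, 1.88, 1.72 and 1.37 with NACET and 1.12, 1.06 and 0.97 with H2O2. NACET-treated control samples thus stood above all other samples of both lines. The mean log2 ratio was 0.66 higher than in untreated cells, a 1.58-fold higher ratio, and from 0.56 to 0.77 higher between samples of the same replicate number. The two-sided exact permutation test gave p = 0.1 (adjusted p = 0.18 over 9 comparisons), the smallest that 3 samples against 3 allow, and p = 0.25, again the smallest possible, with samples paired. In NRF2 ΔC cells the mean ratio was 0.98 ± 0.10 (SD, n = 3) untreated, 1.03 ± 0.03 with NACET and 0.91 ± 0.05 with H2O2. Ferritin has many processed pseudogenes: FTH1P3 had 157 counts over all 18 libraries, FTLP10 and FTHL17 had none, and reads that mapped to several places (8.24 to 10.4% of a library) were not counted, so the levels of both chains are uncertain by the reads shared with such copies.

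**Figure D5:**
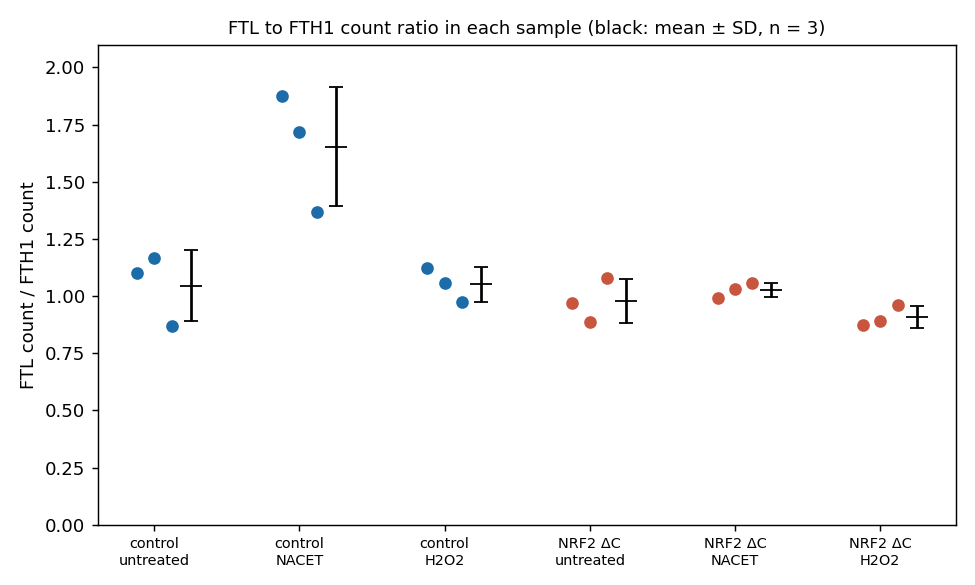
FTL count divided by FTH1 count (vertical axis, from 0) in each of the 18 samples; black marks are the mean ± SD of 3. The NACET-treated control samples lie between 1.37 and 1.88, and all other samples between 0.87 and 1.17.

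Over the 18 samples the levels of FTL moved with those of FTH1 (Pearson r of log2 CPM 0.942), FECH (0.939) and SLC48A1 (0.919), and less with TFRC (0.778) and HMOX1 (0.701). NCOA4 (0.039) and BLVRA (0.249) did not follow FTL. The samples share 6 groups and 2 cell lines, so these values describe the pattern and carry no test. Among 12848 genes with a mean of at least 1 CPM, the 5 most like HMOX1 were SLC7A11 (0.941), MAFG (0.932), ALAS1 (0.925), ANXA7 (0.913) and PRNP (0.911). SLC7A11 is the cystine transporter, MAFG a small MAF protein that pairs with NRF2, and ALAS1 the first enzyme of heme synthesis. Among those most like FTL were PANX2 (0.983), TRIM16L (0.976), MGST1 (0.971), which conjugates glutathione, and CBR1 (0.967). Most like TFRC were SLC35G1 (0.941), CDV3 (0.941), PRKCB (0.933), ZNF641 (0.902) and PFN2 (0.9).

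The wider heme and iron pathway was followed in 56 further genes on 5 lists: 11 of heme synthesis, 9 of heme transport and binding, 11 of iron uptake and reduction, 14 of mitochondrial iron and iron-sulfur cluster assembly, and 11 of iron sensing, oxidation and regulation. Of these, 46 to 48 were tested in each comparison. With NACET in control cells 1 of 48 was a DEG, the porphyrin transporter ABCB6 (heme transport list, log2 fold change 0.74, adjusted p = 0.043), beside 2.75% of all genes. Under the block 5 were, all higher: ABCB6 (0.75), ABCG2 (0.84), which exports heme and other compounds, the zinc and iron importer SLC39A14 (0.63) and the metalloreductases STEAP1 (1.64) and STEAP2 (0.94), beside 7.49% of all genes. STEAP1 was low, at 11 to 20 counts a library in untreated control cells. The median over the 48 was 0.07, beside -0.01 over all genes. ABCB6 was also the only DEG of the 47 tested between the NACET-treated lines, beside 4.76% of all genes. It was at 21.3 to 28.5 CPM in NRF2 ΔC and 72.2 to 82.4 CPM in control cells (-1.67, adjusted p = 0.000539). For the interaction with NACET none of the 48 passed without a block. ABCB6 did under the block shared by the lines (-1.26, adjusted p = 0.00896), although replicate 2 did not pair between them.

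In NRF2 ΔC cells, 2 of 46 genes of these lists rose with NACET, SLC39A14 (0.88, adjusted p = 0.0217) and STEAP2 (1.11, adjusted p = 0.0236), beside 1.39% of all genes. Both calls were lost without untreated replicate 2 or 3, and without NACET replicate 2 or 3, where 0 of all genes were higher DEGs. With the block 4 passed, those 2 with STEAP1 (1.61) and ABCG2 (1.65), beside 8.82% of all genes. STEAP1 and ABCG2 were low, with medians of 1.04 and 1.41 CPM over the 18 samples. H2O2 moved 5 of 48 in control cells, 2 of heme synthesis and 3 of iron uptake and reduction, beside 6.33% of all genes, and 7 of 48 with the block, beside 10.2%. ALAS1 (0.75), SLC39A14 (0.90) and STEAP2 (0.68) rose, whereas ALAD (-0.67), the next enzyme of heme synthesis after ALAS1, and the duodenal ferric reductase CYBRD1 (-0.69) fell. Neither ALAS1 nor ALAD was a DEG with NACET in control cells. There ALAS1 was at 58.7 to 64.9 against 38.0 to 44.2 CPM untreated, and ALAD at 64.4 to 67.4 against 77.3 to 81.3 CPM. In NRF2 ΔC cells H2O2 moved 8 of 46, of which 4 act in heme synthesis, beside 9.81% of all genes, and 11 passed with the block, beside 18.7%. SLC39A14 (1.23), ISCU (0.84), the scaffold of iron-sulfur cluster assembly, SLC25A38 (0.70), a mitochondrial glycine carrier, and ALAS1 (0.70) rose, and BMP6 (-1.08), an inducer of hepcidin, CYBRD1 (-0.95), ALAD (-0.82) and CPOX (-0.60), an enzyme of heme synthesis, fell. Set against H2O2, NACET left ISCU lower in control (-0.92) and in NRF2 ΔC cells (-1.22), among 2 DEGs of 47 and 3 of 46, beside 3.67% and 8.31% of all genes. With the block there were 4 and 6, beside 7.5% and 15.5%, so these counts lie near the share of all genes. Between the lines the only other DEG of these lists was ABCG2 when untreated (-1.87, adjusted p = 0.0332), at 6 to 13 counts a library in NRF2 ΔC cells. It was 1 of 48, beside 3.85% of all genes, and with H2O2 the DEGs were 0 of 47, beside 5.62%.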

How the data were processed

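The authors deposited raw read counts per gene for each of the 18 libraries, with no normalization. Per the submitters' processing notes, reads were handled with FastQC, TopHat2 2.1.0, Bowtie and HTSeq 0.11.2 on hg19. The study's methods state unstranded counting, without reads that map to several places and with ribosomal RNA genes removed, and the gene annotation is not given in the sources used here. The 5 summary lines of each count table were left out, mainly reads on no feature (15.0 to 17.5% of a library), reads that mapped to several places (8.24 to 10.4%) and ambiguous reads (0.955 to 1.18%). Groups followed the sample labels. The 10 genes, the wider lists and the cell type markers were chosen with earlier results of these data known.

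Each pair of groups was fitted with edgeR 4.0.16 (R 4.3.3; filterByExpr, TMM, quasi-likelihood test, two-sided), with Benjamini-Hochberg adjustment over all genes tested. Genes were called DEGs where the adjusted p-value was under 0.05 and the size of the log2 fold change reached 0.6. Interactions used 12 samples and the adjusted p-value alone. The code was tested on simulated data. Alternatives were DESeq2 1.42.0, its size factors in edgeR, no filter on low counts, 1 fit of all 18 samples, a block on replicate number, no fold limit, and leaving out each sample. The replicate number paired samples within a line (correlation of deviations from the group means 0.31 to 0.726 over 6 comparisons), a hint from the data since the labels give only the number. Between the lines the correlation was 0.249 to 0.608 for replicates 1 and 3 but -0.311 to 0.00149 for replicate 2. The interactions were therefore also fitted with the block within each line. With a block, few samples are left to estimate the spread of a gene, and its p-value rests largely on the spread over all genes. Named genes were the 10 genes, NFE2L2, ferritin pseudogenes, at most 4 DEGs each way per wider list, and the 5 genes most correlated with HMOX1, FTL and TFRC (log2 CPM with a prior count of 2), of which 1 is not reported here. Other genes, such as the cell type markers named, were picked after their values were seen.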

Additional observations from a re-analysis of the deposited data

Results flagged for a closer look

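Responses to NACET that differed between the cell lines by the test of their interaction were those of FTL, with -1.10 on the log2 scale in NRF2 ΔC minus control cells, and of SLC48A1, with -1.06 (edgeR, adjusted p = 0.0464 for both). Both calls were lost in all 12 fits with a sample left out, and under a replicate block within each line HMOX1 (-1.77, adjusted p = 6.36e-07), FECH (-0.79, adjusted p = 0.000313) and FTH1 (-0.51, adjusted p = 0.0248) passed as well. In control cells NACET gave log2 fold changes of 1.05 (FTL) and 1.26 (SLC48A1), and in NRF2 ΔC cells of -0.05 and 0.20. With H2O2 the differences were -0.23 for FTL (adjusted p = 0.919) and -0.44 for SLC48A1 (adjusted p = 0.74). Groups of 3 samples are too small for a test of single outlying samples.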

How the results depend on the processing

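The number of the 9 genes called moved most for the interaction of NACET and cell line, from 2 to 4 with DESeq2, 0 with DESeq2's size factors in edgeR, 0 without the filter on low counts, 1 in 1 fit of all 18 samples, 4 with the replicate block shared by the lines and 5 with the block within each line. For the interaction of H2O2 it went from 0 to 1 with the shared replicate block and 2 with the block within each line. Without the fold limit 4 genes were called for H2O2 in control cells and 1 for NACET against H2O2 in control cells. With 1 sample left out, the count was 2 to 4 for NACET and 2 in every fit for H2O2 in control cells, 0 to 1 for NACET and 1 in every fit for H2O2 in NRF2 ΔC cells, and 0 to 1 for NACET against H2O2 in either line. It was 2 to 3 between the untreated lines, 5 to 6 with NACET, 4 to 6 with H2O2, and 0 for both interactions. Among all genes, the counts of DEGs moved too with 1 sample left out, to 31 to 337 from 376 for NACET and 290 to 1047 from 867 for H2O2 in control cells, 0 to 462 from 188 and 275 to 2582 from 1329 in NRF2 ΔC cells, and 400 to 2416 from 763 between the H2O2-treated lines. The 462, 2582 and 2416 came without replicate 1 of the treated NRF2 ΔC cells. Between the lines, where replicate 2 did not pair, a replicate block gave 3, 6 and 6 genes. Within the lines it changed no call of the 9. Signs turned for the following values, none of which was called in the report. NCOA4 had 0.0015 with DESeq2 for NACET in control cells, and in 1 fit of all samples BLVRB had 0.0018 for NACET in NRF2 ΔC cells and NCOA4 0.012 between the NACET-treated lines. With 1 sample left out, the log2 fold changes that turned ranged as follows. With NACET in control cells NCOA4 ranged from -0.025 to 0.023, and with H2O2 BLVRA from -0.14 to 0.012 and BLVRB from -0.10 to 0.061. With NACET in NRF2 ΔC cells BLVRB ranged from -0.091 to 0.084, FECH from -0.13 to 0.061 and FTL from -0.14 to 0.035, and with H2O2 FECH from -0.18 to 0.026 and TFRC from -0.35 to 0.030. For NACET against H2O2 in control cells FTH1 ranged from -0.27 to 0.10 and TFRC from -0.075 to 0.27. Between the lines BLVRA ranged from -0.046 to 0.11 untreated and -0.14 to 0.036 with NACET, NCOA4 from -0.0095 to 0.054, -0.046 to 0.020 and -0.073 to 0.021 in the order untreated, NACET and H2O2, and BLVRB from -0.11 to 0.17 with H2O2. For the interaction of H2O2 FTH1 ranged from -0.22 to 0.0014 and NCOA4 from -0.10 to 0.0018, and the log2 FTL to FTH1 ratio for H2O2 in control cells ranged from -0.11 to 0.10. The causes were not tested. With 3 samples a group, intervals stay wide for some genes. With NACET in control cells the standard error was 0.24 for TFRC and 0.23 for HMOX1, beside 0.10 for FECH. SLC40A1 is under the limit of this depth.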
